A study of Mus musculus with 2 samples.

Results

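Proteasome genes were examined in RNA that had been recovered by immunoprecipitation from nuclear extracts of RAW 264.7 cells, a mouse macrophage line. The members are all gene symbols of the deposited table that begin with Psm, a letter from a to g and a digit, and there were 50 of them among 23924 gene symbols. The nucleolin group was 1 library of RNA bound by an antibody against nucleolin, an RNA-binding protein of the nucleolus. The IgG group was 1 library of RNA recovered with rabbit IgG. Both came from cells depleted of mRrp6, a ribonuclease of the nuclear exosome, that had been given LPS at 80 ng/ml for 12 h, so neither undepleted nor unstimulated cells enter the comparison. The sample titled for nucleoplasmic RNA stands for nucleolin here, since the design text ties nucleoplasmic RNA to that antibody and the column bears the symbol NCL. The question was which transcripts accompany nucleolin. With 1 library a group, no difference below has a replicate check and none was tested.

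The proteasome is the main protease of the cytosol and nucleus and degrades proteins tagged with ubiquitin. Its barrel-shaped core is built from rings of alpha subunits (Psma genes), which gate the entrance, and rings of beta subunits (Psmb genes), of which Psmb5, Psmb6 and Psmb7 carry the constitutive proteolytic sites. A regulatory particle of ATPases (Psmc genes) and non-ATPase subunits (Psmd genes) binds ubiquitinated substrates and unfolds them, and activators (Psme genes) can cap the core in its place. Macrophages exposed to interferon or LPS make the immunoproteasome, in which Psmb8, Psmb9 and Psmb10 replace Psmb5, Psmb6 and Psmb7 and the core supplies peptides for antigen presentation.

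Levels are in FPKM, fragments scaled by transcript length and library size, summed over the rows of a symbol. A gene at 0.1 FPKM or more is called listed. Genes with 1 FPKM or more in either library were compared, and the difference is log2((nucleolin FPKM + 1) / (IgG FPKM + 1)), which understates differences of low genes. Depth was very low. Among protein-coding genes with 1 row, the product of FPKM and gene span piled up at its low end, as it would for intronless genes with 1 read. The pile began at 17227 in the nucleolin library (5 genes within 5%) and 43992 in the IgG library (13 genes within 5%). Read as 1 fragment, these values give about 58048 fragments for nucleolin and 22731 for IgG. Their ratio of 0.392 lay next to the ratio of 0.393 at which 157 of 246 low genes in both libraries stood (63.8%), the ratio that equal reads give. A gene with equal reads therefore had a lower FPKM in the nucleolin library. The rule for the pile was set after seeing the data, and 5 genes is the least it accepts. The closeness of these ratios is therefore no independent check of the fragment value. Since a transcript is no longer than its gene, FPKM times span over the value of 1 fragment gives the most reads a gene can have had.

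Proteasome genes were listed more often than genes of the whole table in both libraries. In the nucleolin library 19 of 50 were listed (38.0%), against 7.23% of all genes, and in the IgG library 13 of 50 (26.0%), against 8.40% of all genes. Nucleolin-only genes numbered 12, genes in both libraries 7 and IgG-only genes 6, which left 25 in neither. All 25 listed members passed the minimum for comparison, and the other 25 had no value to compare. Of the 25, 12 were higher with nucleolin by 2-fold or more (48.0%, where 37.8% of the 3194 compared genes were) and 10 lower by as much (40.0%, where 56.7% were). The 12 higher genes were the 12 nucleolin-only genes, and the 10 lower genes included the 6 IgG-only genes. All compared genes include IgG-only transcripts that do not belong to a macrophage line, described below with the markers. The median log2 ratio of the 25 was -0.30, against -1.27 over all compared genes. The -0.30 is the value of Psma4, the middle gene, and -1.27 is near that of a gene at equal reads such as Psma3. A second scaling set 1 read equal in both libraries by dividing nucleolin values by 0.393. This takes out the scaling for library size and compares reads, so it does not correct for depth. It raises a log2 ratio by at most 1.35. With 1 read set equal, 13 members were higher (40.5% of all compared genes were) and 6 lower (46.9%). The median, again the value of Psma4, was then 1.02, against -0.01 over all compared genes. Summed over all members, the level was 580.2 FPKM in the nucleolin library and 691 FPKM in the IgG library, which is -0.25 as a log2 ratio of the deposited values and 1.09 with 1 read set equal. The listed members stood high among listed genes, at a median percentile of 83.8 with nucleolin and 74.5 with IgG. At this depth 1 read gives a short transcript a high FPKM, so this rank does not separate abundance from transcript length.

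**Figure D1:**
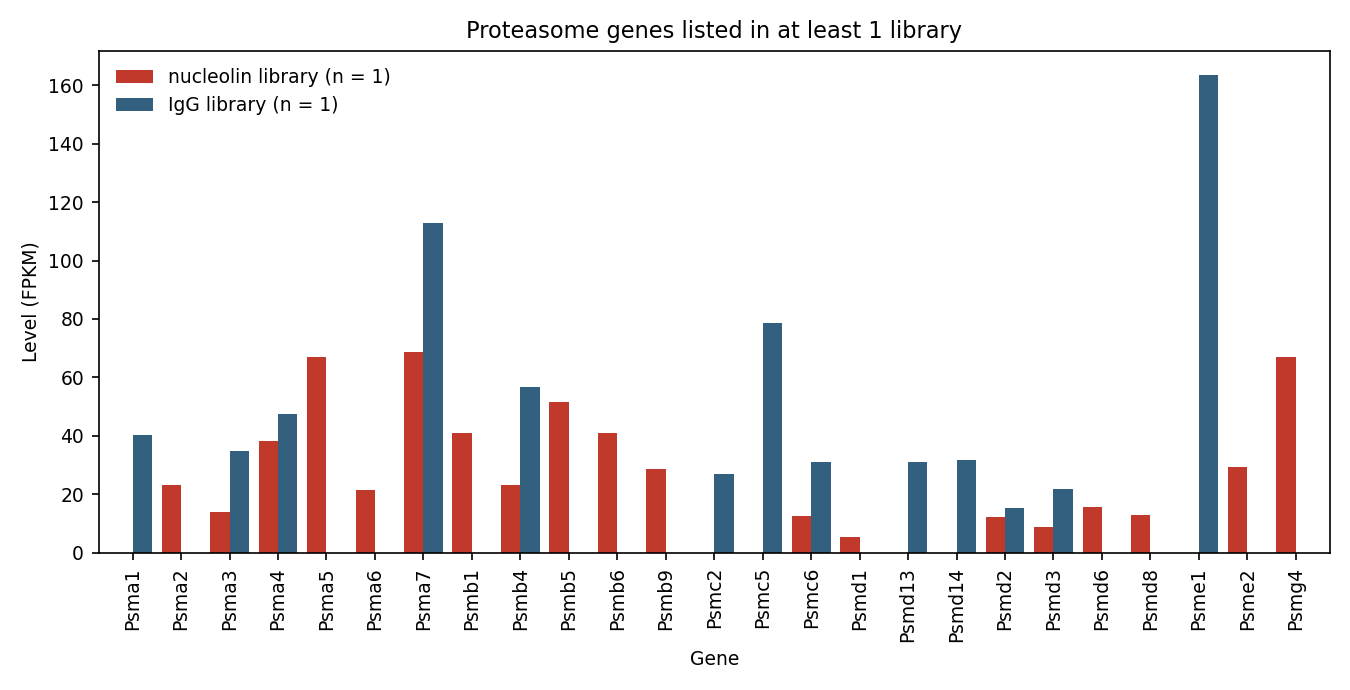
Level in FPKM of each of the 25 proteasome genes listed in at least 1 library, with the nucleolin library in red and the IgG library in blue (1 library each, no error bars). In 12 genes only the red bar is present, in 6 only the blue one, and Psme1 at 164 FPKM in the IgG library is the highest bar.

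The alpha subunits were the best covered family. Of 8 symbols, nucleolin listed 6 and IgG 4, and the 7 alpha genes other than Psma8 were each listed in at least 1 library. Psma7 had the highest level of the family, at 68.6 FPKM in the nucleolin library and 113 FPKM in the IgG library. Its FPKM ratio of 0.609 was that of 3 nucleolin reads to 2 IgG reads, with a counting interval of 0.0676 to 7.06 (exact 95%, at the smallest read numbers that give the ratio). Psma4 had 38.1 FPKM in the nucleolin library and 47.3 FPKM in the IgG library, the ratio of 2 nucleolin reads to 1 IgG read (interval of the FPKM ratio 0.0410 to 46.4). At these ratios both genes had more reads in the nucleolin library, although their FPKM was lower there. Psma3 had 13.8 FPKM in the nucleolin library and 34.7 FPKM in the IgG library, the ratio of equal reads. Its log2 ratio of -1.27 counts it among the lower genes as deposited and became 0.020 with 1 read set equal.

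The remaining alpha genes were listed in 1 library each. Psma5 was at 66.8 FPKM in the nucleolin library, against 0 in the IgG library. Psma2 was at 23.1 FPKM and Psma6 at 21.5 FPKM in the nucleolin library, and both were at 0 in the IgG library. Psma1 was the exception, at 0 in the nucleolin library and 40.1 FPKM in the IgG library. Psma8, which encodes a testis form of an alpha subunit, was at 0 in both. The summed alpha level was nearly the same as deposited, at 232 FPKM in the nucleolin library and 235 FPKM in the IgG library (a log2 ratio of -0.02, and 1.32 with 1 read set equal).

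More beta subunits were listed with nucleolin than with IgG, on few reads. Of 11 symbols 5 were listed with nucleolin and 1 with IgG, where 7.23% and 8.40% of all genes were. Of the 5 compared, 4 were nucleolin-only (80.0%, against 37.1% of all compared genes). Summed levels were 185 FPKM with nucleolin and 56.6 FPKM with IgG (a log2 ratio of 1.69, and 3.03 with 1 read set equal). Among the constitutive proteolytic subunits, Psmb5, of the chymotrypsin-like site, was at 51.6 FPKM in the nucleolin library, against 0 in the IgG library. Psmb6, of the caspase-like site, was at 41.0 FPKM and 0, and Psmb7, of the trypsin-like site, was at 0 in both. Of their immunoproteasome replacements, Psmb9, which takes the place of Psmb6, was at 28.7 FPKM in the nucleolin library, against 0 in the IgG library. Psmb8 and Psmb10, which replace Psmb5 and Psmb7, were at 0 in both libraries. The nucleolin library thus listed 1 of 3 immunoproteasome genes, and the IgG library none of 3.

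The structural subunit Psmb1 was at 41.0 FPKM in the nucleolin library, against 0 in the IgG library, the same value as Psmb6 to the last deposited digit. Psmb4 was the one beta gene in both libraries, at 23.0 FPKM in the nucleolin library and 56.6 FPKM in the IgG library, the ratio of equal reads. Its span of 2635 bases allows at most 3 reads in each library, at which the interval of its FPKM ratio was 0.0527 to 2.94. Psmb2, Psmb3 and the thymus form Psmb11 were at 0 in both.

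The values of single-library genes rest on few reads. The spans of Psmb5, Psmb6 and Psmb9 allow at most 11, 6 and 8 reads in the nucleolin library. Had Psmb9 1 read there, a count of 0 in the IgG library (taken as up to 3 reads) would still allow 219 FPKM, and for Psmb5 and Psmb6 it would allow 393 and 312 FPKM. Even at the most reads their spans allow, the interval of the nucleolin-to-IgG ratio reached down to 0.671 for Psmb9, 0.987 for Psmb5 and 0.463 for Psmb6. Of the 12 nucleolin-only members, 6 had an interval that held a ratio of 1 at the most reads possible. The intervals of the other 6, and of the 6 IgG-only members, did not hold 1 at the most reads possible, but with 1 read each they all did, and the true read numbers are not known. Spans include introns, so the most reads possible can far exceed the true number. The 6 nucleolin-only members whose intervals held 1 have the shortest spans, 2535 to 8761 bases, against 12432 to 74677 for the other 6. This split therefore follows span and ranks no gene. The intervals cover counting error only, and reads without molecular identifiers are not independent molecules.

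The bases before the start of 3 proteolytic subunit genes are printed because they include listed and unlisted catalytic subunits, and because interferon and stress factors are known to act on proteasome promoters. The sequences are RefSeq's on GRCm38.p6, the assembly of the authors' mm10 build, and each runs 250 bases up to the base before the start in the gene's own direction. Capitals mark a match, on either strand, to TGACNNNGC (the core of the antioxidant response element, bound by Nfe2l1 and Nfe2l2), TTTCNNTTT (a core of the interferon-stimulated response element), TTCNNNGAA (the gamma-activated site of STAT factors) or CCAAT. Psmb5 is from chr14:54617996-54618245 on the minus strand, Psmb8 from chr17:34197945-34198194 on the plus strand and Psmb9 from chr17:34187331-34187580 on the minus strand.
Psmb5: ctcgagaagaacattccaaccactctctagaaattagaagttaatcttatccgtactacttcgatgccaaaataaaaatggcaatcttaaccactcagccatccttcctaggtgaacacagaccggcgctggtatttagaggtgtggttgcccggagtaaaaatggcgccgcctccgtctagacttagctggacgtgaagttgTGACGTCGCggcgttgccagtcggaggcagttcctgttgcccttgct
Psmb8: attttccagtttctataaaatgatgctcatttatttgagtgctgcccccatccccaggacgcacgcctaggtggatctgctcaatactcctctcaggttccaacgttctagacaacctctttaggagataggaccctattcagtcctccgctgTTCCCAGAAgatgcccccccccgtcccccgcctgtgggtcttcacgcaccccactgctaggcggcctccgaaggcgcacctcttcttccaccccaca
Psmb9: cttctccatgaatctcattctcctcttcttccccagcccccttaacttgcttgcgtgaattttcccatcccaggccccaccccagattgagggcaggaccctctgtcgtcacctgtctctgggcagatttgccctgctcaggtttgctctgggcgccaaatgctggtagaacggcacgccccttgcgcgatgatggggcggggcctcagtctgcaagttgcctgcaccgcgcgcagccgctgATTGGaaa
Psmb5, listed in the nucleolin library, held 1 antioxidant response element core and none of the other 3 motifs. Motifs were counted over the 250 bases before each start of the promoter table, which for Psmb6 reach 33 bases into the annotated gene, where its one match lies, so that window is not printed. The antioxidant core was in 5 of the 42 members found in the promoter table (11.9%) and in 11.5% of the 27025 genes of the table, so the share among members was near that of all genes. Psmb8, which was in neither library, held 1 gamma-activated site (2 of 42 members, 8.13% of all genes). Psmb9, listed in the nucleolin library, held 1 CCAAT box (15 of 42 members, 37.5% of all genes). The core of the interferon-stimulated response element was in 4 of 42 members (10.8% of all genes), none of them listed in either library. None of the 3 sequences held overlapping matches. These are matches of letters in a short window, the libraries measured RNA and not promoters, and no match says nothing about a factor. Psmb9 and Tap1, a peptide transporter of antigen presentation, stand 225 bases apart on chromosome 17, so the last bases of the Psmb9 window farthest from its start lie within Tap1.

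The regulatory particle had a lower summed level with nucleolin, at 66.7 FPKM in the nucleolin library and 236 FPKM in the IgG library. Of its 21 symbols 6 were listed with nucleolin and 7 with IgG. The log2 ratio of the sums was -1.81, and -0.47 with 1 read set equal. The median log2 ratio of its compared genes was -1.25, against -1.27 over all compared genes. Both medians lie near the value of genes at equal reads, as Psmc6 and Psmd3 were, so their closeness says little about the particle. By 2-fold or more, 3 of its 10 compared genes were higher (37.8% of all compared genes were) and 6 lower (56.7%). IgG-only genes numbered 4 of the 10, where 46.0% of all compared genes were IgG-only. The ATPase family was at 12.3 FPKM and 136 FPKM in sum. Of its 7 symbols 1 was listed with nucleolin and 3 with IgG. Psmc6, an ATPase of the unfolding ring, had 12.3 FPKM in the nucleolin library and 31.0 FPKM in the IgG library, the ratio of equal reads. Psmc5 was at 0 in the nucleolin library and 78.6 FPKM in the IgG library, and Psmc2 at 0 and 26.7 FPKM. Psmc1, Psmc3 and Psmc4 were at 0 in both. So was Psmc3ip, which the symbol rule takes in although it encodes a partner protein that acts in meiotic recombination and is no subunit.

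**Figure D2:**
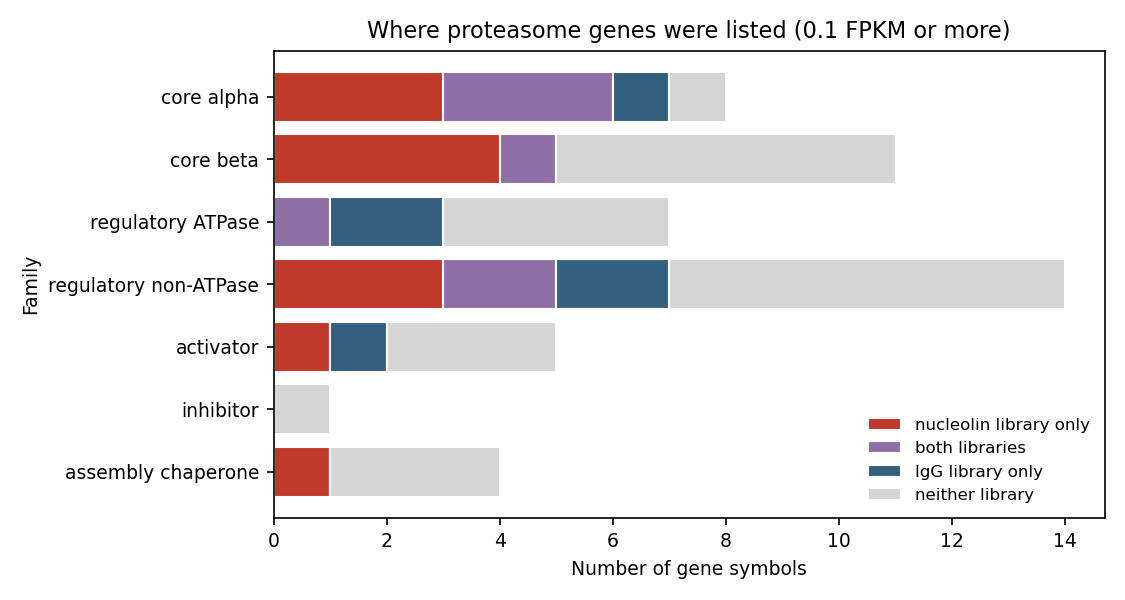
Number of gene symbols of each proteasome family that were listed (0.1 FPKM or more) in the nucleolin library only, in both libraries, in the IgG library only or in neither. Core beta genes have 4 in the nucleolin library only and 0 in the IgG library only, while ATPase genes have 0 and 2. Of all compared genes 37.1% were nucleolin-only and 46.0% IgG-only.

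The non-ATPase subunits were split. Of 14 symbols 5 were listed with nucleolin and 4 with IgG, with summed levels of 54.4 and 99.7 FPKM. The log2 ratio of the sums was -0.86 as deposited and changed sign to 0.47 with 1 read set equal. Psmd2, a large scaffold subunit that docks ubiquitin shuttles, had 12.0 FPKM in the nucleolin library and 15.3 FPKM in the IgG library. Its main row stood at the ratio of 2 nucleolin reads to 1 IgG read, and its span allows no more than 8 and 4. Psmd3 had 8.58 FPKM in the nucleolin library and 21.7 FPKM in the IgG library, the ratio of equal reads with at most 6 in each. Psmd6, Psmd8 and the other large scaffold subunit Psmd1 had 15.5, 12.8 and 5.43 FPKM in the nucleolin library, against 0 in the IgG library. Psmd14, the deubiquitinase of the particle, was at 0 in the nucleolin library and 31.6 FPKM in the IgG library, and Psmd13 at 0 and 31.1 FPKM. Psmd5, Psmd9 and Psmd10, which are assembly chaperones of the particle, and the ubiquitin receptor Psmd4 were at 0 in both, as were Psmd7, Psmd11 and Psmd12.

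The paired activator subunits stood in opposite libraries. Of all compared genes only 16.8% were listed in both libraries, so a place in 1 library was common. Psme1 and Psme2 encode the interferon-inducible subunits that assemble together into one ring on the core. Psme1 was at 0 in the nucleolin library and 164 FPKM in the IgG library, the highest level of any proteasome gene. Psme2 was at 29.2 FPKM in the nucleolin library, against 0 in the IgG library. The genes are neighbours on chromosome 14, Psme1 from 55578494 to 55581527 and Psme2 from 55587440 to 55591101, with 5912 bases between them. Their spans allow at most 11 IgG reads for Psme1 and 6 nucleolin reads for Psme2. With 1 IgG read of Psme1, a count of 0 in the nucleolin library would allow 193 FPKM there, above the measured IgG level. The nuclear activator Psme3, Psme4 and Psme2b, a near-identical copy of Psme2 on chromosome 11 with which reads could be shared, were at 0 in both. Overlapping genes were found for 5 of the 25 listed members, among them Emc9 beside Psme1, and all of these were at 0 in both libraries.

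Of the assembly chaperones, which guide the building of the alpha ring, Psmg4 was at 67.1 FPKM in the nucleolin library, against 0 in the IgG library. Psmg1, Psmg2 and Psmg3 were at 0 in both, as was Psmf1, which encodes an inhibitor of the core. Psmg4 was thus close to Psma5 and Psma7 among the highest proteasome genes of the nucleolin library.

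**Figure D3:**
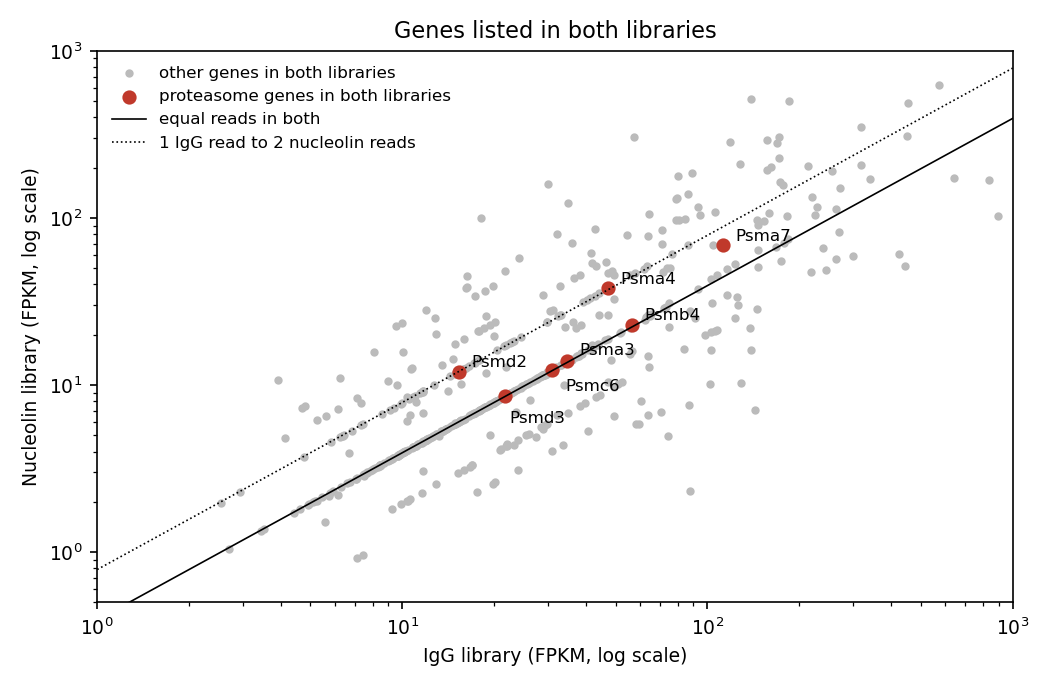
FPKM in the nucleolin library against FPKM in the IgG library, both on log axes, for genes listed in both; the 7 proteasome genes are red and named, and genes above 1000 FPKM are not drawn. Psma3, Psmb4, Psmc6 and Psmd3 lie on the solid line of equal reads, Psma4 and Psmd2 on the dotted line of 1 IgG read to 2 nucleolin reads, and Psma7 between the lines.

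Of the 7 members in both libraries, 4 stood at equal reads, 2 at 2 nucleolin reads to 1 IgG read and 1 at 3 to 2, and none had fewer reads in the nucleolin library. Equal reads were also the common case among low genes in both libraries (157 of 246, 63.8%). Read ratios are not corrected for depth, estimated at 58048 fragments with nucleolin and 22731 with IgG. The median log2 ratio of the 7 members was -1.25, against -1.19 over the 538 genes in both. All 7 intervals at the smallest read numbers held a ratio of 1. At the largest read numbers their spans allow 5 still did, and those of Psma3 (0.201 to 0.770) and Psmc6 (0.168 to 0.921) lay below 1. Psma3 and Psmc6 have the longest spans of the 7, introns included, so this result follows span as well.

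Single-library genes were also counted in other machinery of the cell. Of 31 compared nuclear-encoded oxidative phosphorylation genes, 10 were nucleolin-only (32.3%) and 17 IgG-only (54.8%). Of 14 compared genes for lysosomal proteases, membrane proteins and the V-ATPase, 21.4% were nucleolin-only and 35.7% IgG-only. The proteasome genes had 48.0% and 24.0%, and all compared genes 37.1% and 46.0%. The differences between these sets were not tested, and all compared genes include IgG-only transcripts that do not belong to a macrophage line.

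**Figure D4:**
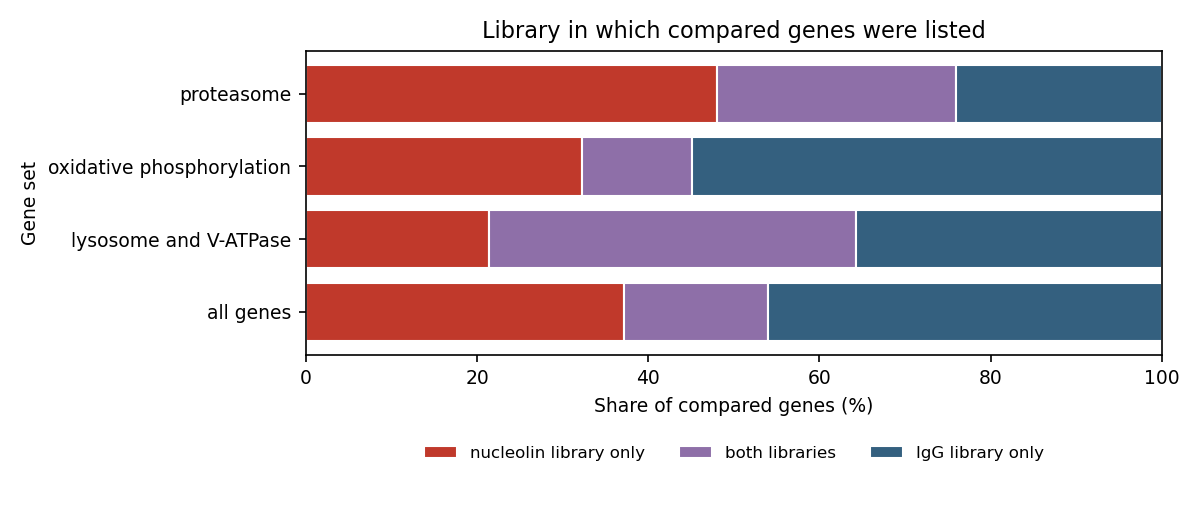
Share in percent of the compared genes of each set that were listed in the nucleolin library only, in both libraries or in the IgG library only. The proteasome bar has 48.0% nucleolin-only and 24.0% IgG-only genes, and the bar of all compared genes 37.1% and 46.0%.

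Genes that work with the proteasome were also mixed. Of 29 symbols of ubiquitin genes and proteasome partners 16 were compared. With nucleolin 6 were higher by 2-fold or more (37.5%, against 37.8% of all compared genes) and 5 lower (31.25%, against 56.7%). Nucleolin-only genes made up 37.5% and IgG-only genes 18.8%, against 37.1% and 46.0% of all compared genes. The median log2 ratio of the 16 was -0.31. Pomp, the maturation factor of the core, was at 32.9 FPKM in the nucleolin library, against 0 in the IgG library, like Psmb5 and Psmb6. Shfm1, a small subunit of the regulatory particle outside the symbol rule, was at 0 in the nucleolin library and 146 FPKM in the IgG library. Nfe2l1, a transcription factor of proteasome genes, had 10.1 FPKM in the nucleolin library and 9.61 FPKM in the IgG library.

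The polyubiquitin gene Ubb had 95.5 FPKM in the nucleolin library, against 154 FPKM in the IgG library. Rps27a, a fusion of ubiquitin with a ribosomal protein, had 33.4 FPKM in the nucleolin library, against 0 in the IgG library. The activating enzyme Uba1 was at 12.8 and 21.8 FPKM, and Zfand5, a proteasome-binding zinc finger protein, at 6.89 and 23.5 FPKM, in the nucleolin and IgG libraries. The ubiquitin shuttle Rad23b was at 0 in the nucleolin library and 11.7 FPKM in the IgG library.

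Among 13 genes of antigen peptide supply, 7 were compared. By 2-fold or more, 2 were higher (28.6%, against 37.8% of all compared genes) and 1 lower (14.3%, against 56.7%). Tap1 was at 0 in the nucleolin library and 15.4 FPKM in the IgG library, the reverse of its neighbour Psmb9. Such single-library genes were common, since 16.8% of all compared genes were listed in both. B2m had 105 FPKM in the nucleolin library and 64.5 FPKM in the IgG library, and Canx 24.5 and 0 FPKM. The peptide-loading genes Pdia3, Calr and Tapbp had 34.1, 48.0 and 13.1 FPKM with nucleolin, against 17.3, 48.6 and 16.6 FPKM with IgG.

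Markers of other cell types moved with the libraries. Macrophage markers were listed in both libraries. Of 9, 7 were listed with nucleolin (sum 525 FPKM) and 3 with IgG (sum 494 FPKM). The 4 nucleolin-only markers were Lyz2, Csf1r, Coro1a and Itgam. The 3 in both libraries had a lower FPKM with nucleolin. Cd14 was at 207 FPKM with nucleolin and 319 FPKM with IgG, Cd68 at 16.2 and 138 FPKM, and Spi1 at 14.9 and 37.4 FPKM. All 7 gastric and digestive markers, 4 of 6 epithelial and 2 of 4 fibroblast markers were listed in the IgG library. The sums were 19817, 339 and 34.6 FPKM there, and all 17 markers were at 0 in the nucleolin library. Of all genes 8.40% were listed with IgG and 7.23% with nucleolin. The marker lists were chosen with earlier results of these data known, so these counts describe the libraries and are no test. None of these 3 marker lists belongs to a macrophage line, so the IgG library held transcripts that its label does not account for. Proteasome genes are used by all cell types, and the part of such RNA in the comparison was not tested. All compared genes include such transcripts too, and how far their IgG-only and lower shares depend on them was not tested.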

How the data were processed

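RNA from nucleolin and IgG immunoprecipitations was sequenced, 1 library each. The deposited table gives FPKM, as the authors computed it per the file headers, for 33529 transcript rows. Trimmomatic 0.32, FastQC 0.10.0 and build mm10 are named by the submitters' processing notes. For the aligner, quantifier, strand and multimapping rule, nothing is given in the sources used here. A symbol was missing in 56 rows, which were left out, and rows were summed by symbol. The members had 56 rows and 50 symbols, 6 of them with more than 1 row, and all symbols were found by gene identifier in RefSeq's table for GRCm38.p6, which gave coordinates and spans.

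The software was scipy 1.17.1, numpy 2.4.6, pandas 2.3.3, matplotlib 3.10.9 and Python 3.11.15. Levels were compared with a pseudocount of 1 FPKM and a minimum of 1 FPKM in at least 1 library, and 2-fold was the size counted. Each read ratio was assigned the lowest whole-number pair, of no more than 8 reads together, that lay within a log2 tolerance of 0.05. The most frequent ratio was found among genes below 30 FPKM in the nucleolin and 60 FPKM in the IgG library. For members with more than 1 row the highest row was used, since their other rows were near 0. The value of 1 fragment was taken as the lowest product of FPKM and span that began a window of 5% holding at least 5 genes, leaving out histone and Mup genes, a rule set after seeing the data. It assumes that these genes are intronless with 1 read. Intervals are exact (Clopper-Pearson, 95%). The steps were tested on simulated data. Every member above 0 was named, as were genes of the partner lists above 10 FPKM, except some that are not reported here. Members and lists were chosen with earlier results of these data known. Alternatives covered the pseudocount, the minimum, the scaling, the row rule and Psmc3ip.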

Additional observations from a re-analysis of the deposited data

How the results depend on the processing

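No paired analysis was possible because each group has 1 library, and no replicate could be left out. The count of 12 proteasome genes higher with nucleolin by 2-fold or more stayed between 11 and 13 under all 8 alternatives. These 12 are the nucleolin-only genes. With 0 in the IgG library, such settings can hardly bring a gene under 2-fold, so the steady count is no check of it. The count of 10 lower genes was 6 when centred on the median of all compared genes (-1.27), 6 with 1 read set equal, and 9 or 10 under the other 6. The 6 lower genes left under these 2 scalings were the IgG-only genes. The median log2 ratio of -0.30 was -0.25 with a pseudocount of 5 FPKM, 0.96 after centring and 1.02 with 1 read set equal. The log2 ratio of the summed FPKM, -0.25, was 1.01 after centring and 1.09 with 1 read set equal. Setting 1 read equal raises every nucleolin value above 0 by undoing the scaling for library size, and centring raises every log2 ratio by the same amount. Of 150 recomputed single-gene values, 14 turned from below to above 0, all under these 2 scalings. Of these, 6 belong to Psma4, Psma7 and Psmd2, which were within 2-fold as deposited and reached 0.96, 0.56 and 0.94 after centring and 1.02, 0.63 and 0.95 with 1 read set equal. The other 8 belong to genes at equal reads that had counted as lower. After centring, Psma3 was at 0.0013, Psmb4 at 0.0023, Psmc6 at 0.0042 and Psmd3 at 0.021; with 1 read set equal they were at 0.020, 0.044, 0.016 and 0.0060. Depth limits all single-gene comparisons, since a gene at 0 in 1 library may differ from the other by 1 read.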
